A study of Mus musculus with 12 samples.

Results

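The nuclear-encoded genes of the mitochondrial respiratory chain and ATP synthase were examined in epididymal white adipose tissue (eWAT), a visceral fat pad of male mice. The genes were taken by symbol: all genes whose symbol starts with Nduf, Uqcr, Cox4, Cox5, Cox6, Cox7, Cox8 or Atp5, together with Sdha, Sdhb, Sdhc, Sdhd, Cyc1 and Cycs. Of 98 such genes among the 25232 listed, 95 reached a level of at least 0.5 CPM (read counts scaled to the total of a library) in at least 3 of 12 libraries. They were 95 of 15597 genes that passed the same filter. The other 3, Ndufa11b, Cox7b2 and Cox8c, had at most 2 reads in any library. The 95 genes comprised 38 genes of complex I, 4 of complex II, 9 of complex III, 16 of complex IV and 17 of ATP synthase. A further 8 encode assembly factors of complex I (the Ndufaf genes), 2 encode proteins found with complex IV (Ndufa4 and Ndufa4l2), and Cycs encodes cytochrome c. Among the complex I genes, 7 encode the conserved core subunits and 31 the accessory ones. The accessory count includes the pseudogene Ndufs5-ps and Ndufb4c, a close copy of Ndufb4.

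RNA was sequenced from eWAT of C57BL/6 mice in 4 groups of 3 libraries, which the labels give as biological replicates. HFD_TKO mice had the genotype labelled TET KO (TKO in the extraction protocol) and a high-fat diet (HFD), HFD_WT mice were wild type on the same diet, ND_TKO mice had the TET KO genotype on a normal diet (ND), and ND_WT mice were wild type on the normal diet. The series title speaks of removing TET proteins, enzymes that oxidise 5-methylcytosine in DNA, from adipocytes, and the labels give eWAT as the tissue extracted. The driver of the deletion, the deleted exons, the age of the mice and the length of the diet are not stated in the labels. All comparisons draw on the same 12 libraries, and those that share a group share its libraries.

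The respiratory chain passes electrons from NADH through complex I, or from succinate through complex II, by way of coenzyme Q to complex III, then through cytochrome c to complex IV, which reduces oxygen. The proton gradient that complexes I, III and IV build drives ATP synthase. Most subunits are encoded in the nucleus and are joined in the inner mitochondrial membrane with a few encoded in mitochondrial DNA, which were not analysed here. In white fat the chain supports lipid synthesis and fatty acid oxidation, and several complex IV subunits exist as tissue-specific isoforms.

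Library totals lay between 20973140 and 25606629 reads, so 3 reads, the limit that a count of 0 allows, corresponded to 0.117 to 0.143 CPM (counting error only). The 20 mature adipocyte markers were read in every group and summed to 83812 to 92265 CPM in HFD_TKO libraries, 42897 to 46229.5 CPM in HFD_WT libraries, 110879 to 119954 CPM in ND_TKO libraries and 91695 to 110614 CPM in ND_WT libraries. Markers of testis and epididymis summed to at most 3.43 CPM in any library. Tet1 was higher in TKO libraries on both diets (log2 change 0.76 on HFD and 0.97 on ND), and Tet2 and Tet3 did not pass the test between genotypes. Since the deleted exons are not given and eWAT holds cells other than adipocytes, these whole-gene counts do not check the genotype labels. Along the first 2 principal components of all tested genes, HFD_TKO replicate 1 and ND_WT replicate 3 lay apart from the other libraries of their groups. Without this pair the genes called higher and lower were 65 and 3 in TKO against WT on HFD, 3 and 2 in TKO against WT on ND, 0 and 12 in HFD against ND in TKO, 4 and 71 in HFD against ND in WT and 44 and 1 in the interaction of genotype and diet, to be read beside the counts from all libraries given with each comparison. Shares of all genes called without this pair are not given, so these counts have no background of their own. In whole tissue, fewer cells of a type and less RNA per cell cannot be told apart.

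HFD_WT libraries held the lowest level of the respiratory chain genes. The 95 genes summed to 13153, 12029.6 and 11977 CPM in HFD_TKO libraries, 9709.8, 9437 and 9445 CPM in HFD_WT libraries, 12992, 12792 and 14548 CPM in ND_TKO libraries and 13392, 14003 and 12566 CPM in ND_WT libraries. HFD_WT libraries lay below the other 9 without overlap, and the other 3 groups overlapped each other. The group means were 12386 ± 664 CPM in HFD_TKO, 9531 ± 155 in HFD_WT, 13444 ± 961 in ND_TKO and 13320.2 ± 721 in ND_WT (SD, n = 3 each). Set against the ND_WT mean, the sum was 93% in HFD_TKO, 71.6% in HFD_WT and 101% in ND_TKO.

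Each of the 5 complexes had its lowest sums in HFD_WT. As a share of the ND_WT mean, the HFD_TKO and HFD_WT sums were 91.6% and 68.2% for complex I, 81.6% and 63.8% for complex II, and 96.2% and 70.3% for complex III. They were 89% and 72.5% for complex IV, and 95.5% and 74.7% for ATP synthase. HFD_TKO sums were 137% of HFD_WT sums in complex III and 123% in complex IV, the ends of the range over the 5 complexes. Complex II kept the smallest share in both HFD groups, with 959, 916 and 880.5 CPM in HFD_TKO libraries, 731, 705 and 717 CPM in HFD_WT libraries, 1022, 1137 and 1176 CPM in ND_TKO libraries and 1191, 1187 and 999 CPM in ND_WT libraries. The 3 HFD_TKO complex II sums lay above all HFD_WT sums and below all ND sums. Differences between complexes were not tested.

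**Figure D1:**
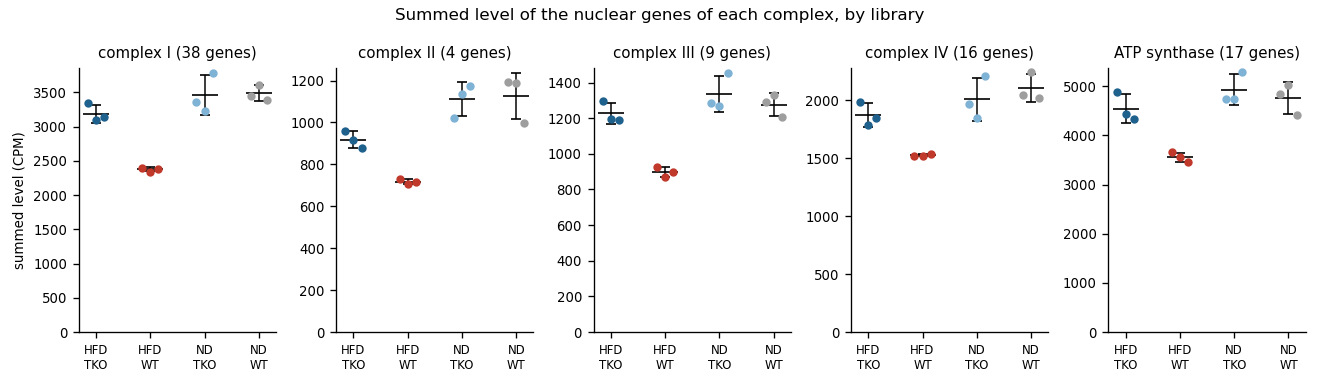
Summed CPM of the nuclear genes of each complex (y axis from 0) in every library, by group (x axis); points are libraries, and bars give the mean ± SD (n = 3). In all 5 panels the HFD_WT points lie below the points of the other groups, with complex I sums between 2344 and 2399 CPM in HFD_WT and between 3095 and 3341 CPM in HFD_TKO.

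The first comparison set TKO against WT mice on HFD, since the stated aim of the series is to compare transcripts of these genotypes. Genes of all 5 complexes were higher in HFD_TKO than in HFD_WT libraries: 70 of 95 rose and 3 fell, at an adjusted p under 0.05 (limma on log2(CPM + 1), adjusted over 15597 genes by the Benjamini-Hochberg method). Over all genes tested, 15.2% were called higher and 31.6% lower, or 46.7% in either direction. The median log2 change was 0.35 over the 95 genes and -0.10 over all genes. With TMM scaling, which sets libraries to a common trimmed mean and moves the median of all genes by 0.11 in this contrast, 77 rose and 2 fell, with a median of 0.49. With the same scaling 3541 of all 15597 genes were called higher and 3853 lower. In 77 of the 95 genes all 3 HFD_TKO libraries lay above all 3 HFD_WT libraries (21.0% of all genes), and in 4 they lay below (38.6% of all genes). In 69 genes all HFD_WT libraries lay below the other 9 libraries (11.3% of all genes), among them all 4 genes of complex II, all 9 of complex III, 31 of 38 of complex I, 13 of 17 of ATP synthase and 9 of 16 of complex IV.

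Markers of several cell types moved in the same comparisons. Of 20 mature adipocyte markers, 16 rose and 0 fell between HFD_TKO and HFD_WT (median log2 change 0.93), and 16 fell and 1 rose between HFD_WT and ND_WT (median -1.19). Of 20 macrophage markers, 2 rose and 17 fell between HFD_TKO and HFD_WT (median -2.18), and 17 rose between HFD_WT and ND_WT (median 2.52). The macrophage sums were 2071 to 2480.1 CPM in HFD_TKO libraries, 10124 to 11566 CPM in HFD_WT libraries, 1131 to 1595 CPM in ND_TKO libraries and 1334 to 1925 CPM in ND_WT libraries. Lymphocyte and stromal markers moved the same way as the macrophage ones. Between HFD_TKO and HFD_WT, 9 of 10 T and NK cell markers, 6 of 6 B and plasma cell markers and 6 of 9 stromal markers fell and none rose, and between HFD_WT and ND_WT 9, 4 and 7 of them rose and none fell. The stromal sums were 3883 to 4655 CPM in HFD_TKO libraries and 5916 to 7811 CPM in HFD_WT libraries, the T and NK cell sums 7.91 to 11.3 and 22.6 to 68.4 CPM, and the B and plasma cell sums 9.45 to 14.1 and 73.2 to 275 CPM, in the same groups. Of 6 mesothelial markers, 5 fell between HFD_WT and ND_WT and 0 were called between HFD_TKO and HFD_WT. Of 10 endothelial and mural markers, 1 rose between HFD_TKO and HFD_WT, and 3 rose and 1 fell between HFD_WT and ND_WT. Of all genes tested, 15.2% rose and 31.6% fell between HFD_TKO and HFD_WT, and 37.8% rose and 20.3% fell between HFD_WT and ND_WT. No marker of these lists was at 0 in any group. The HFD_WT sum of the adipocyte markers was 43.8% of the ND_WT mean, and that of the respiratory chain genes 71.6%. Per 100 CPM of adipocyte markers, the respiratory chain genes had 15.7, 13 and 13 CPM in HFD_TKO libraries, 21, 21 and 22 CPM in HFD_WT libraries, 11.2, 11.5 and 12.1 CPM in ND_TKO libraries and 12.9, 12.7 and 13.7 CPM in ND_WT libraries. By this ratio HFD_WT libraries were the highest of the 12, while by CPM they were the lowest. The marker sum depends on strongly expressed genes that themselves change. Car3 averaged 22320 CPM in ND_WT and 3901 in HFD_WT, of mean sums of 102126 and 44685 CPM, and Cfd averaged 9589 and 152 CPM. With genotype on ND, 2 of the 20 markers rose and 4 fell, against 2.16% and 3.54% of all genes. The ratio is therefore not a level per adipocyte. The part of these cell types in the changes of the respiratory chain genes was not tested.

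**Figure D2:**
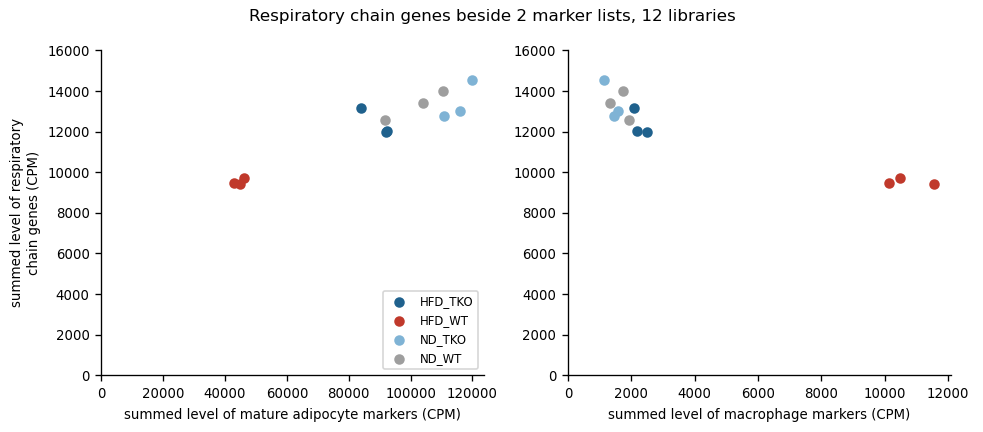
Summed CPM of the 95 respiratory chain genes (y axes from 0) against the summed CPM of 20 mature adipocyte markers (left, x axis) and 20 macrophage markers (right, x axis), 1 point per library, coloured by group. The HFD_WT points stand apart in both panels, at 42897 to 46229.5 CPM of adipocyte markers and 10124 to 11566 CPM of macrophage markers.

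In complex III, which oxidises coenzyme Q and reduces cytochrome c, all 9 genes were higher in HFD_TKO than in HFD_WT, with a median of 0.51. Uqcrq, a small subunit of this complex (chr11:53427922-53430831, GRCm38.p6), had 103, 94.7 and 103 CPM in HFD_TKO libraries, 57.7, 54.4 and 57 CPM in HFD_WT libraries, 111, 86.2 and 116 CPM in ND_TKO libraries and 88.9, 96.3 and 98.8 CPM in ND_WT libraries. The HFD_WT libraries lay well below every other library, and the other 3 groups overlapped. Its log2 change between HFD_TKO and HFD_WT was 0.82 ± 0.10 (SE, adjusted p = 3.70e-05), a 1.76-fold difference. Uqcr11, another small subunit (chr10:80402997-80406821), had 97.5, 95.1 and 101 CPM in HFD_TKO libraries, 54.1, 57.5 and 59.3 CPM in HFD_WT libraries, 113, 82.1 and 122 CPM in ND_TKO libraries and 96.5, 99.2 and 112 CPM in ND_WT libraries. Again HFD_WT libraries were the lowest and the other groups overlapped, with a log2 change of 0.77 ± 0.12 (SE, adjusted p = 0.000285). Uqcrc1, a core protein of the complex, had 220.4, 197 and 189 CPM in HFD_TKO libraries, 162, 160.4 and 157 CPM in HFD_WT libraries, 210.2, 208 and 240.4 CPM in ND_TKO libraries and 212, 204 and 202 CPM in ND_WT libraries, and changed by 0.33 ± 0.08 (SE, adjusted p = 0.00375). Uqcrfs1, the Rieske iron-sulfur subunit that takes electrons from coenzyme Q, had 145, 131 and 133 CPM in HFD_TKO libraries, 94.5, 87.9 and 92 CPM in HFD_WT libraries, 145, 154 and 159 CPM in ND_TKO libraries and 145, 146 and 129.9 CPM in ND_WT libraries. In both genes the HFD_WT libraries were again the lowest of the 12.

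In complex I, the entry point for electrons from NADH, 33 of 38 genes rose and 0 fell, with a median of 0.42. Of the core subunits, 6 of 7 rose (median 0.37), and of the accessory ones 27 of 31 (median 0.42). Ndufs4, Ndufs8, Ndufb4, Ndufb4c and Ndufa5 did not pass the test. Ndufab1, the mitochondrial acyl carrier protein and an accessory subunit, had 146, 124 and 127 CPM in HFD_TKO libraries, 80.4, 77.8 and 78 CPM in HFD_WT libraries, 125, 105 and 136 CPM in ND_TKO libraries and 105, 109 and 109 CPM in ND_WT libraries. It had the largest change of the complex, 0.74 ± 0.09 (SE, adjusted p = 4.50e-05), and its HFD_TKO levels overlapped those of ND_TKO and exceeded those of ND_WT. Ndufs1, an iron-sulfur core subunit, had 188, 174 and 161 CPM in HFD_TKO libraries, 136, 126 and 125 CPM in HFD_WT libraries, 178, 201 and 203 CPM in ND_TKO libraries and 194, 178 and 175 CPM in ND_WT libraries, with a log2 change of 0.43 ± 0.08 (SE, adjusted p = 0.000857). Ndufv1, which binds NADH, had 152, 149.6 and 145 CPM in HFD_TKO libraries, 98.4, 99.4 and 97.1 CPM in HFD_WT libraries, 182, 175 and 203 CPM in ND_TKO libraries and 169.8, 169 and 169 CPM in ND_WT libraries. HFD_TKO libraries stood between HFD_WT and ND libraries for Ndufv1, without overlap on either side. Ndufb9, an accessory subunit of the membrane arm (chr15:58933801-58939516), had 128, 126 and 117 CPM in HFD_TKO libraries, 86.1, 86 and 87.5 CPM in HFD_WT libraries, 136, 136 and 158 CPM in ND_TKO libraries and 161, 191 and 143 CPM in ND_WT libraries, and changed by 0.51 ± 0.10 (SE, adjusted p = 0.00112).

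Ndufs5 and Ndufs5-ps, and Ndufb4 and Ndufb4c, are near-identical pairs whose reads the counting may split, so their single values are uncertain. A total of 31 of the 95 genes share an exon with another annotated gene, and the use of strand in counting is not given. Among the 60 genes with neither a shared exon nor a copy, 44 were called in either direction between HFD_TKO and HFD_WT, against 46.7% of all genes. Of the 8 assembly factors of complex I, 3 rose, Ndufaf1 (log2 change 0.45 ± 0.09 SE, adjusted p = 0.00107), Ndufaf3 (0.45) and Ndufaf4 (0.41), and 0 fell. Of all genes, 15.2% were called higher and 31.6% lower. Ndufaf1 had 27.6, 27.7 and 27.7 CPM in HFD_TKO libraries, 21.6, 17.4 and 21.2 CPM in HFD_WT libraries, 29.3, 32.4 and 30.1 CPM in ND_TKO libraries and 27.2, 26.1 and 27.7 CPM in ND_WT libraries, and its HFD_WT libraries were the lowest of the 12. Ndufaf4 had 28.7, 24.3 and 25.3 CPM in HFD_TKO libraries and 21.7, 18.8 and 17.8 CPM in HFD_WT libraries. On ND it had 22.6, 23.5 and 23.2 CPM in ND_TKO libraries and 19.3, 19.2 and 17.8 CPM in ND_WT libraries. With TMM scaling 5 of the 8 were called higher, against 3541 of all 15597 genes.

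All 4 genes of complex II, which oxidises succinate, were higher in HFD_TKO than in HFD_WT, with a median of 0.34. Sdha, the flavoprotein that carries the catalytic site, had 516, 509 and 478 CPM in HFD_TKO libraries, 389, 375 and 374 CPM in HFD_WT libraries, 578, 691 and 687 CPM in ND_TKO libraries and 731, 731 and 556 CPM in ND_WT libraries. The HFD_TKO libraries lay above HFD_WT and below both ND groups. Its log2 change between HFD_TKO and HFD_WT was 0.40 ± 0.11 (SE, adjusted p = 0.0102). Sdhb, the iron-sulfur subunit, had 135, 122 and 121 CPM in HFD_TKO libraries, 100.4, 101 and 107 CPM in HFD_WT libraries, 141, 146 and 168 CPM in ND_TKO libraries and 170.4, 166 and 146 CPM in ND_WT libraries, and showed the same order of groups with a change of 0.29 ± 0.08 (SE, adjusted p = 0.0134). Cycs, cytochrome c (chr6:50562563-50566569), had 364, 300.5 and 292 CPM in HFD_TKO libraries, 252, 227 and 220.3 CPM in HFD_WT libraries, 273, 265 and 265 CPM in ND_TKO libraries and 223, 229.6 and 211 CPM in ND_WT libraries. Its HFD_TKO libraries lay above all other libraries, with a change of 0.44 ± 0.09 (SE, adjusted p = 0.00138) against HFD_WT.

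In complex IV, which passes electrons to oxygen, 10 of 16 genes rose and 2 fell, with a median of 0.35. The genes that rose included the widely expressed isoforms. Cox6a1 had 218, 191 and 207 CPM in HFD_TKO libraries, 133, 143 and 144 CPM in HFD_WT libraries, 223, 189 and 244 CPM in ND_TKO libraries and 229, 239 and 228 CPM in ND_WT libraries, and changed by 0.55 ± 0.09 (SE, adjusted p = 0.000393). Cox8a had 205, 197 and 213 CPM in HFD_TKO libraries, 140.4, 151 and 145 CPM in HFD_WT libraries, 244, 207 and 265 CPM in ND_TKO libraries and 269, 277 and 261 CPM in ND_WT libraries, and changed by 0.49 ± 0.08 (SE, adjusted p = 0.00045). Both were lowest in HFD_WT libraries, without overlap with any other group. Cox5a had 112, 86 and 86.3 CPM in HFD_TKO libraries, 68.9, 70.9 and 68.4 CPM in HFD_WT libraries, 87.6, 75.8 and 95 CPM in ND_TKO libraries and 78.5, 89.3 and 76.5 CPM in ND_WT libraries, and changed by 0.43 ± 0.11 (SE, adjusted p = 0.00726). Cox6b1, a subunit on the outer face of the complex, had 274, 232 and 248 CPM in HFD_TKO libraries, 206, 195 and 189.9 CPM in HFD_WT libraries, 249.6, 253 and 271 CPM in ND_TKO libraries and 232, 248 and 237 CPM in ND_WT libraries, and changed by 0.35 ± 0.07 (SE, adjusted p = 0.0021). Cox4i1, the main form of subunit IV, had 394, 356 and 351 CPM in HFD_TKO libraries, 310.3, 301 and 309.7 CPM in HFD_WT libraries, 393, 397 and 464 CPM in ND_TKO libraries and 432, 512 and 434 CPM in ND_WT libraries, with a change of 0.25 ± 0.09 (SE, adjusted p = 0.0365), and its HFD_WT libraries were the lowest of the 12. Cox7a2, the widely expressed form of subunit VIIa, had 125, 108 and 108 CPM in HFD_TKO libraries, 96.3, 92.8 and 92.1 CPM in HFD_WT libraries, 121, 101 and 133 CPM in ND_TKO libraries and 123, 131 and 121 CPM in ND_WT libraries, with a change of 0.27 ± 0.10 (SE, adjusted p = 0.034). In these 4 genes too, no HFD_WT library reached any HFD_TKO library. The calls for Cox4i1 and Cox7a2 were lost when HFD_TKO replicate 1 or any single HFD_WT replicate was left out, and that for Cox4i1 also without HFD_TKO replicate 2 and with a replicate block (adjusted p up to 0.115 and 0.12). Ndufa4, a protein found with complex IV, had 187, 179 and 172 CPM in HFD_TKO libraries, 121, 120.5 and 123 CPM in HFD_WT libraries, 209, 177 and 229.8 CPM in ND_TKO libraries and 217, 241 and 207 CPM in ND_WT libraries. It changed by 0.56 ± 0.09 (SE, adjusted p = 0.000378), with HFD_WT lowest.

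In ATP synthase, 9 of 17 genes rose and 1 fell, with a median of 0.24. With TMM scaling 13 rose and 0 fell, with a median of 0.38. Atp5b, the catalytic beta subunit, had 1832, 1639 and 1537 CPM in HFD_TKO libraries, 1177, 1149 and 1082 CPM in HFD_WT libraries, 1810.1, 1811 and 1971 CPM in ND_TKO libraries and 1813, 1869.9 and 1510.1 CPM in ND_WT libraries. All HFD_WT libraries lay below the other 9, and the log2 change between HFD_TKO and HFD_WT was 0.55 ± 0.11 (SE, adjusted p = 0.00132). Atp5a1, the alpha subunit, had 910.4, 855 and 836 CPM in HFD_TKO libraries, 760.3, 743 and 721 CPM in HFD_WT libraries, 894, 932 and 975 CPM in ND_TKO libraries and 904, 893 and 849 CPM in ND_WT libraries, with a smaller change of 0.22 ± 0.07 (SE, adjusted p = 0.0253). The Atp5a1 call was lost without HFD_TKO replicate 1 or 2 or any HFD_WT replicate, with the change at 0.19 to 0.36 over all alternatives and an adjusted p of up to 0.0868.

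**Figure D3:**
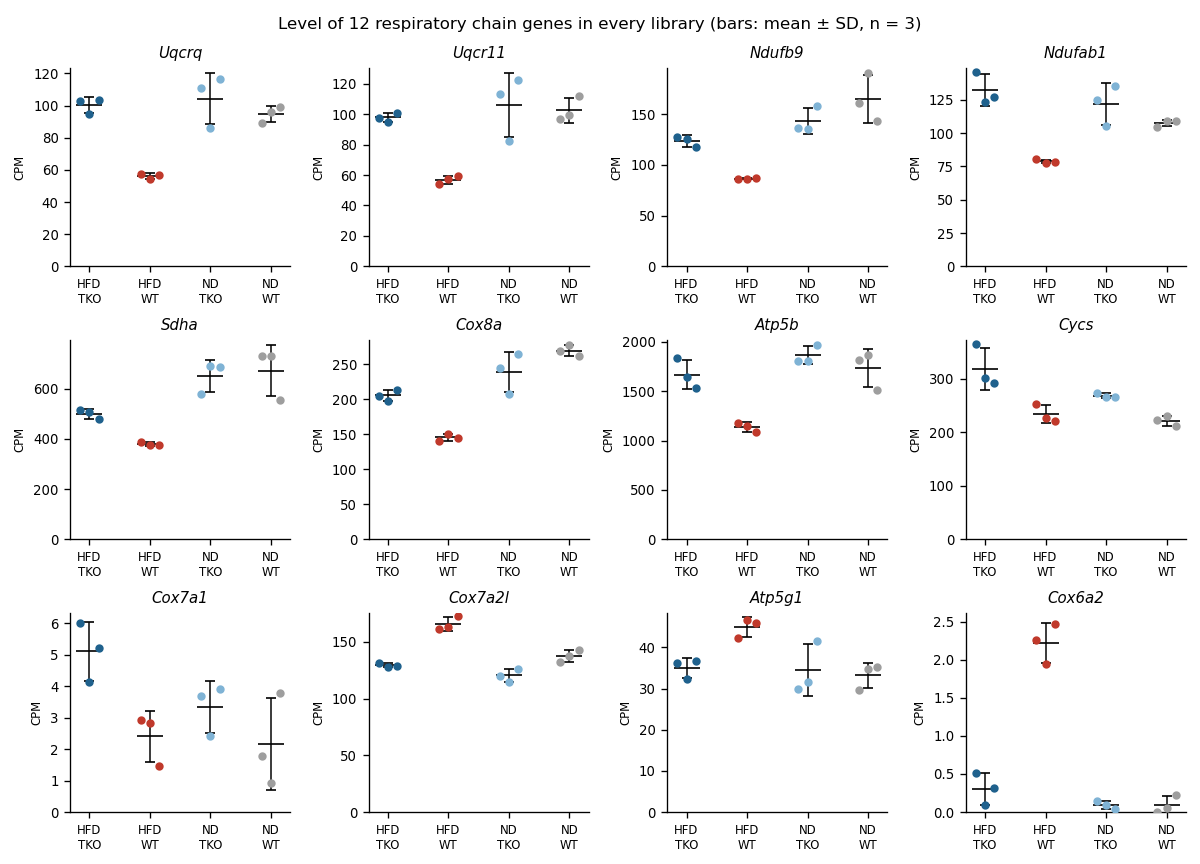
CPM of 12 respiratory chain genes (y axes from 0, one scale per gene) in every library, by group (x axis); points are libraries, and bars give the mean ± SD (n = 3). For Uqcrq the HFD_TKO points lie between 94.7 and 103 CPM and the HFD_WT points between 54.4 and 57.7 CPM, while for Cox7a2l, Atp5g1 and Cox6a2 the HFD_WT points are the highest.

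Since these genes moved together, their promoters were read for 4 motifs of factors known as regulators of respiratory genes in mammals. The RefSeq promoters (GRCm38.p6, 250 bases before to 50 after the annotated start) matched 76 of the 95 genes and 12153 of the 15597 tested genes. The motifs were GCGCATGCG for NRF1, CCGGAAG for ETS factors such as GABP, TCAAGGTCA for estrogen-related receptors (ERR) and AAGATGGCG for YY1, each searched on both strands, and none of the 4 contains another. The NRF1 motif stood in a promoter of 14.5% of the 76 genes and of 3.64% of the 12153 tested genes. The ETS motif stood in 25% against 17.9%, the YY1 motif in 10.5% against 3.05%, and the ERR motif in 2.63% against 0.329%. At least 1 of the 4 was found for 33 of the 76 genes (43.4%) and for 23.2% of the 12153 tested genes. By complex the share with any motif was 34.4% of 32 genes of complex I, 66.7% of 3 of complex II, 60.0% of 5 of complex III, 25% of 12 of complex IV and 60.0% of 15 of ATP synthase. These shares are descriptions of letters in a window and were not tested.

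The windows below show motifs in promoters of the called genes that hold each motif, at most 3 a motif. Those with the largest changes between HFD_TKO and HFD_WT were taken, where the motif starts no later than 10 bases past the start site. None is shown for YY1, whose motif started 23 to 34 bases past the start site in the 4 called genes that hold it. The windows run 5′ to 3′ on the minus strand of the chromosome, where all these genes lie, with the motif in capitals. A motif on the strand opposite to the gene reads as its reverse complement. The NRF1 motif was shown for a complex III gene, a complex IV gene and cytochrome c.
Uqcr11 chr10:80406802-80406866 (−): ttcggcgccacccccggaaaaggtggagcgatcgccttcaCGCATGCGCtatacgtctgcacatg
Cox6a1 chr5:115349072-115349160 (−): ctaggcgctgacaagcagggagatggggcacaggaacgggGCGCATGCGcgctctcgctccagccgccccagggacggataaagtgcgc
Cycs chr6:50566582-50566670 (−): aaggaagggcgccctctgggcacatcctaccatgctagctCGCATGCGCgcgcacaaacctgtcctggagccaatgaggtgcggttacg
The ETS motif was shown for the same Uqcr11 promoter, a complex I gene (Ndufb6) and Cox6a1.
Uqcr11 chr10:80406841-80406927 (−): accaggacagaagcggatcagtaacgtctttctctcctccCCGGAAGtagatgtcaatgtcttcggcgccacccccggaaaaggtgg
Ndufb6 chr4:40279607-40279671 (−): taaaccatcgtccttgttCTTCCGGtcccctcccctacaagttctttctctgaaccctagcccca
Cox6a1 chr5:115348939-115349014 (−): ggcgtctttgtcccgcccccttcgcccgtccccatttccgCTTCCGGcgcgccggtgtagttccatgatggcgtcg
The ERR motif was shown for Atp5g3, which encodes subunit c of ATP synthase.
Atp5g3 chr2:73911330-73911418 (−): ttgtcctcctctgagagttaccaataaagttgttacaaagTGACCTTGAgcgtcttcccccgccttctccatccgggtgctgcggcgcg
Uqcr11 and Cox6a1 each held both the NRF1 and the ETS motif, and their log2 changes between HFD_TKO and HFD_WT were 0.77 and 0.55. The other genes shown changed by 0.44 (Cycs), 0.59 (Ndufb6) and 0.41 (Atp5g3). In Uqcr11 the NRF1 motif spans the start site, from base -5 to base 4 counted from the first transcribed base.

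The comparison of HFD with ND in WT mice, which shares the HFD_WT libraries with the one above, gave the opposite direction. In WT eWAT, 71 of the 95 genes were lower on HFD and 3 higher, against 20.3% lower and 37.8% higher among all genes (58.1% in either direction). The median log2 change was -0.43 over the 95 genes and 0.13 over all genes. With TMM scaling, which moves the median of all genes by -0.14 here, 80 fell and 1 rose, with a median of -0.60. With the same scaling 4395 of all 15597 genes were called lower and 4550 higher. All 4 genes of complex II fell (median -0.49), as did all 9 of complex III (median -0.56) and 33 of 38 of complex I (median -0.53). In complex I the core subunits had a median of -0.66 and the accessory ones -0.48, a difference that was not tested. ATP synthase had 12 lower and 1 higher of 17 (median -0.30), and complex IV 9 lower and 2 higher of 16 (median -0.40). Of the assembly factors of complex I, 3 of 8 fell (median -0.24).

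The genes with the largest falls were Ndufb9 (log2 change -0.91 ± 0.10 SE, adjusted p = 8.41e-06), Cox8a (-0.88 ± 0.08 SE, adjusted p = 3.07e-06) and Ndufa4 (-0.86 ± 0.09 SE, adjusted p = 8.52e-06). In each, all HFD_WT libraries lay below all ND_WT libraries. Uqcr11 fell by 0.83 ± 0.12 (SE, adjusted p = 0.000109), and Sdha by 0.81 ± 0.11 (SE, adjusted p = 5.66e-05), on the log2 scale. Ndufv1 changed by -0.78, Cox6a1 by -0.72 and Atp5b by -0.60. Cytochrome c was not called: Cycs differed by 0.07 between HFD_WT and ND_WT (95% interval -0.12 to 0.27, adjusted p = 0.493), and its HFD_WT and ND_WT libraries overlapped. Ndufb3, an accessory subunit of the membrane arm, had 144, 106 and 113 CPM in HFD_TKO libraries, 89.9, 88.6 and 77.7 CPM in HFD_WT libraries, 94.6, 82.4 and 96.9 CPM in ND_TKO libraries and 89, 87.6 and 96 CPM in ND_WT libraries. Its change in WT was -0.09 (95% interval -0.33 to 0.15), and it did not pass the test, nor did Ndufa11, Ndufa8, Ndufb7 and Ndufs8.

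**Figure D4:**
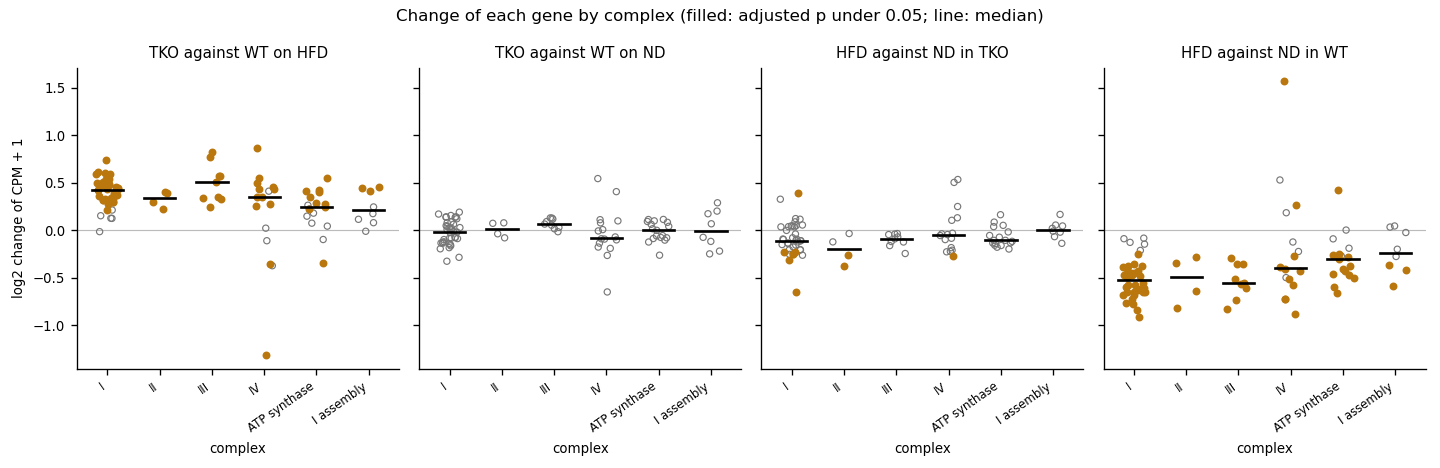
Log2 change of CPM + 1 of each gene (y axis) by complex (x axis) in 4 comparisons; filled points have an adjusted p under 0.05 (limma), open points do not, and lines are medians. In the panel of TKO against WT on HFD most points lie above 0, with a complex III median of 0.51, in the panel of HFD against ND in WT most lie below 0, and in the panel of TKO against WT on ND no point is filled. TKO against WT on HFD and HFD against ND in WT share the HFD_WT libraries.

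On the normal diet, no gene of the chain was called between genotypes. Of the 95 genes, 0 rose and 0 fell by limma, against 2.16% higher and 3.54% lower among all genes (5.7% in either direction). At an unadjusted p under 0.05 by limma there were 10 of the 95, against 3530 of all 15597 genes. By edgeR, DESeq2, limma-voom and limma with TMM scaling, 0 were called each. The median log2 change was 0.00, and the changes lay between -0.65 (Cox8b) and 0.62 (Ndufa4l2). The medians by complex were -0.02 in complex I, 0.02 in complex II, 0.06 in complex III, -0.08 in complex IV and 0.00 in ATP synthase. For Uqcrq the 95% interval of the log2 change was -0.09 to 0.35, for Ndufab1 -0.03 to 0.37, for Sdha -0.28 to 0.20, for Cox8a -0.36 to 0.00 and for Atp5b -0.13 to 0.35. Cycs had a change of 0.27 (95% interval 0.08 to 0.47, adjusted p = 0.0905), and its 3 ND_TKO libraries lay above its 3 ND_WT libraries. Without ND_WT replicate 3, 2 genes were called, without HFD_TKO replicate 1, whose spread enters the common estimate, 1 gene, and without both of these libraries 3 were higher and 2 lower. Shares of all genes called in these smaller fits are not given.

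Between HFD and ND in TKO mice, few genes moved: 9 of 95 fell and 1 rose, against 5.9% lower and 16.2% higher among all genes (22.1% in either direction), with a median of -0.09. The medians were -0.11 in complex I, -0.19 in complex II, -0.09 in complex III, -0.05 in complex IV and -0.11 in ATP synthase. Complex II gave 2 of the falls, Sdha (-0.37 ± 0.11 SE, adjusted p = 0.031) and Sdhb (-0.26 ± 0.08 SE, adjusted p = 0.0434). In complex I the falls were Ndufa5, Ndufv1, Ndufa9, Ndufa1, Ndufb8 and Ndufv3, and in complex IV Cox6c. Ndufa5, an accessory subunit of the matrix arm, had 25.7, 29.4 and 36.5 CPM in HFD_TKO libraries, 31.6, 31.2 and 29 CPM in HFD_WT libraries, 43.9, 47.1 and 53.6 CPM in ND_TKO libraries and 51.4, 55.8 and 51.4 CPM in ND_WT libraries. Both HFD groups lay below both ND groups for this gene, and its changes were -0.65 ± 0.12 (SE, adjusted p = 0.00354) in TKO and -0.77 ± 0.12 (SE, adjusted p = 0.000128) in WT. Ndufb3 was the gene that rose (0.39 ± 0.11 SE, adjusted p = 0.0267), and its HFD_TKO libraries were the highest of the 12. The count changed with single libraries: 2 genes were called without ND_TKO replicate 3, 4 without HFD_TKO replicate 1, 3 without HFD_TKO replicate 2 or 3, and 4 without any single HFD_WT replicate, which enter only through the common spread. The call of Ndufb3 was lost without HFD_TKO replicate 1, ND_TKO replicate 2 or ND_TKO replicate 3 and with TMM scaling, edgeR, DESeq2, limma-voom and only the groups compared (adjusted p up to 0.131), and that of Sdha without any single HFD_TKO replicate or ND_TKO replicate 2 or 3 (up to 0.111). The Sdhb call was lost without HFD_TKO replicate 2 or 3, any single HFD_WT replicate, or ND_TKO replicate 2 or 3, and with no filter on low values, only the groups compared or a replicate block (up to 0.17).

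Whether the TKO effect differed between diets was tested as the genotype by diet interaction, the TKO effect on HFD minus that on ND. It was higher than 0 in 48 genes and lower in 1 of the 95, against 9.94% and 18.8% of all genes (28.7% in either direction), with a median of 0.35 over the 95 and -0.06 over all genes. The counts of genes above 0 were 27 of 38 in complex I, 2 of 4 in complex II, 6 of 9 in complex III, 6 of 16 in complex IV and 4 of 17 in ATP synthase. The largest were Uqcr11 (0.74 ± 0.17 SE, adjusted p = 0.00737), Ndufb9 (0.70 ± 0.14 SE, adjusted p = 0.00267) and Uqcrq (0.69 ± 0.14 SE, adjusted p = 0.0034). Ndufa4 (0.68), Cox8a (0.67) and Cox6a1 (0.64) also passed. For Cycs (0.17, 95% interval -0.10 to 0.44) and Uqcrc1 (0.24, 0.01 to 0.48) the difference between diets did not pass after adjustment. Without HFD_WT replicate 2, 32 genes were called instead of 49. Atp5b (0.44) was called with all libraries and not with TMM scaling, no filter on low values or a replicate block, nor when any library other than HFD_TKO replicate 3 or ND_WT replicate 3 was left out (adjusted p up to 0.111).

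HFD_TKO libraries were also set against ND_WT libraries, to show how far genes stood from the level of WT mice on the normal diet. Of the 95 genes, 7 were higher and 23 lower in HFD_TKO, against 20.0% and 15.0% of all genes (35.1% in either direction), with a median of -0.09. Those higher were Cox7a1 (1.04 ± 0.30 SE, adjusted p = 0.0187), Cox4i2 (0.94 ± 0.22 SE, adjusted p = 0.0078), Ndufa4l2 (0.93 ± 0.25 SE, adjusted p = 0.0126), Cycs (0.52 ± 0.09 SE, adjusted p = 0.0013), Ndufaf4 (0.45), Ndufb3 (0.40) and Ndufab1 (0.29). The largest falls were in Cox8b (-0.87 ± 0.22 SE, adjusted p = 0.0101), Ndufa5 (-0.79 ± 0.12 SE, adjusted p = 0.000605) and Cox6b2 (-0.49 ± 0.15 SE, adjusted p = 0.0243), and Sdha (-0.41) and Ndufb9 (-0.40) also fell. The 95% interval of the change was -0.14 to 0.30 for Uqcrq, -0.33 to 0.20 for Uqcr11 and -0.29 to 0.19 for Atp5b. The count of called genes was 14 without ND_WT replicate 2, 17 without ND_WT replicate 1 and 18 without HFD_TKO replicate 1. The call of Ndufab1 was lost with TMM scaling, edgeR, DESeq2 and limma-voom, that of Ndufb3 with limma-voom, and those of Cox7a1, Ndufb3, Cox6b2 and Sdha with only the groups compared. The calls of Cox7a1, Ndufab1 and Ndufb3 were also lost without HFD_TKO replicate 1, ND_WT replicate 1 or ND_WT replicate 2 (adjusted p up to 0.0754, 0.104 and 0.0549), Ndufa4l2 without HFD_TKO replicate 1 or ND_WT replicate 2 (up to 0.0518), Cox6b2 without HFD_TKO replicate 1 or 2 or ND_WT replicate 1 or 3 (up to 0.124), and Sdha without ND_WT replicate 1 or 2 (up to 0.0599). Cox7a1 was also lost without HFD_TKO replicate 3.

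On HFD 3 genes went against the rest and were lower in TKO: Cox6a2, Cox7a2l and Atp5g1. All 3 were highest in the HFD_WT libraries, without overlap with the other 9 (29.3% of all genes showed this order). Cox7a2l, counted here with complex IV by its symbol (chr17:83501917-83514333), had 132, 128 and 128 CPM in HFD_TKO libraries, 162, 163 and 172 CPM in HFD_WT libraries, 120.2, 115 and 127 CPM in ND_TKO libraries and 132, 138 and 143 CPM in ND_WT libraries. Its log2 change was -0.35 ± 0.06 (SE, adjusted p = 0.000505) between HFD_TKO and HFD_WT and 0.27 ± 0.06 (SE, adjusted p = 0.00261) between HFD_WT and ND_WT. The change with diet did not pass with TMM scaling, edgeR, DESeq2 or limma-voom (adjusted p up to 0.276), while the change with genotype passed under every alternative. Atp5g1, one of 3 genes for subunit c of ATP synthase (chr11:96072793-96075694), had 36.1, 32.3 and 36.7 CPM in HFD_TKO libraries, 42.2, 46.8 and 45.8 CPM in HFD_WT libraries, 29.9, 31.7 and 41.7 CPM in ND_TKO libraries and 29.7, 34.7 and 35.2 CPM in ND_WT libraries. Its changes were -0.35 ± 0.12 (SE, adjusted p = 0.0278) with genotype on HFD and 0.43 ± 0.12 (SE, adjusted p = 0.008) with diet in WT, and neither passed with TMM scaling, edgeR, DESeq2 or limma-voom (adjusted p up to 0.226 and 0.103). The change with genotype was also lost without HFD_TKO replicate 2, HFD_WT replicate 2 or HFD_WT replicate 3. Atp5g3, which encodes the same mature protein, was higher in HFD_TKO than in HFD_WT by 0.41 ± 0.09 (SE, adjusted p = 0.00303). In the same comparison Atp5g2 changed by -0.10 (95% interval -0.33 to 0.13).

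Cox6a2, the heart and muscle isoform of subunit VIa (chr7:128205435-128206366), had the lowest mean over all libraries of the 95 genes, although in HFD_WT Cox6b2 was lower still. It had 11, 2 and 7 reads in HFD_TKO libraries, 58, 44 and 57 in HFD_WT libraries, 3, 2 and 1 in ND_TKO libraries and 0, 1 and 5 in ND_WT libraries. Its level was 0.512, 0.0923 and 0.320 CPM in HFD_TKO libraries, against 2.27, 1.95 and 2.47 CPM in HFD_WT libraries, and at most 0.229 CPM in any ND library, near the level of 3 reads. Outside HFD_WT only HFD_TKO replicate 1 reached 0.5 CPM, so Cox6a2 passed the filter on low values through the group in which it is high, and its calls against HFD_WT are no independent support for a difference. Its log2 change was -1.31 ± 0.15 (SE) with genotype on HFD and 1.57 ± 0.15 (SE) with diet in WT, on a scale that adds 1 CPM. On recovered reads edgeR gave -2.68 and 4.35, and limma-voom -2.90 and 4.74. An exon of Cox6a2 overlaps an exon of Itgad, a leukocyte integrin, on the opposite strand (chr7:128173933-128205504). Itgad had 3.91, 2.39 and 3.93 CPM in HFD_TKO libraries, 70.1, 68.9 and 67.8 CPM in HFD_WT libraries, 1.29, 0.603 and 0.534 CPM in ND_TKO libraries and 0.477, 0.185 and 0.502 CPM in ND_WT libraries. Without stated use of strand in counting, reads of the overlapping stretch cannot be told apart, and the part of Itgad in the Cox6a2 values was not tested. Of 12 muscle markers 5 were tested. Between HFD_TKO and HFD_WT, Mb (0.50) and Acta1 (1.35) rose and Tnni2 (-0.58) fell, and the part of muscle cells in the Cox6a2 values was not tested.

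The other tissue-specific isoforms were scarce beside their widely expressed partners. Cox7a1, the muscle and brown fat isoform of subunit VIIa, had 6.0, 4.14 and 5.21 CPM in HFD_TKO libraries, 2.93, 2.83 and 1.47 CPM in HFD_WT libraries, 3.69, 2.41 and 3.91 CPM in ND_TKO libraries and 1.76, 0.922 and 3.79 CPM in ND_WT libraries. All HFD_TKO libraries lay above all HFD_WT libraries, with a change of 0.86 ± 0.30 (SE, adjusted p = 0.0329), the largest rise of the 95 genes. That call was lost without HFD_TKO replicate 1 or 3 or HFD_WT replicate 3 and with no filter on low values, with the change at 0.45 to 1.26 over all alternatives and adjusted p up to 0.132. Cox8b, the muscle and brown fat isoform of subunit VIII in rodents, had 4.93, 4.04 and 2.24 CPM in HFD_TKO libraries, 5.08, 4.65 and 5.15 CPM in HFD_WT libraries, 4.89, 2.97 and 5.60 CPM in ND_TKO libraries and 7.53, 7.24 and 7.48 CPM in ND_WT libraries. It was higher in ND_WT libraries than in all other libraries, and did not pass between genotypes on HFD (-0.37, 95% interval -0.85 to 0.11). Cox4i2, a form of subunit IV induced by low oxygen, had 4.65, 4.96 and 5.03 CPM in HFD_TKO libraries, 2.62, 3.19 and 4.72 CPM in HFD_WT libraries, 3.51, 3.06 and 2.67 CPM in ND_TKO libraries and 2.91, 1.11 and 2.51 CPM in ND_WT libraries. Its HFD_TKO libraries overlapped those of HFD_WT, and the change on HFD was 0.41 (95% interval -0.08 to 0.90). Ndufa4l2, a target of hypoxia-inducible factor, had 14, 10.6 and 9.96 CPM in HFD_TKO libraries, 8.01, 9.69 and 8.57 CPM in HFD_WT libraries, 11.3, 6.86 and 9.34 CPM in ND_TKO libraries and 5.01, 3.69 and 8.81 CPM in ND_WT libraries. Cox6b2, known from testis, had 0.931, 0.965 and 1.05 CPM in HFD_TKO libraries, 1.25, 1.28 and 0.909 CPM in HFD_WT libraries, 1.52, 0.973 and 1.51 CPM in ND_TKO libraries and 2.0, 1.34 and 2.10 CPM in ND_WT libraries. Neither passed the test between genotypes on HFD (95% intervals -0.18 to 0.89 and -0.44 to 0.22).

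Paired isoforms were compared by the ratio of their CPM values within a library, with no added constant, so that library scaling cancels. The log2 ratio of Cox8b to Cox8a averaged -5.85 ± 0.63 in HFD_TKO and -4.87 ± 0.13 in HFD_WT libraries (SD, n = 3 each), a difference of -0.98 with no overlap. On ND the Cox8b to Cox8a ratio was likewise lower in TKO, with a difference of -0.60 and no overlap. The ratio of Cox7a1 to Cox7a2 was higher in HFD_TKO than in HFD_WT by 0.86, also without overlap. Between ND_TKO and ND_WT that ratio differed by 0.93, with overlap and an exact permutation p of 0.4. The ratio of Ndufa4l2 to Ndufa4 was higher on HFD than on ND by 1.54 in WT and by 0.53 in TKO mice. That of Cox4i2 to Cox4i1 was higher on HFD by 1.34 in WT and by 0.86 in TKO mice. All of these diet differences were without overlap, as were several other ratios of the family. The exact two-sided permutation p of each difference without overlap was 0.1, the smallest that 3 against 3 libraries allow. After adjustment over the family of 30 ratios it was 0.176, so none could pass.

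**Figure D5:**
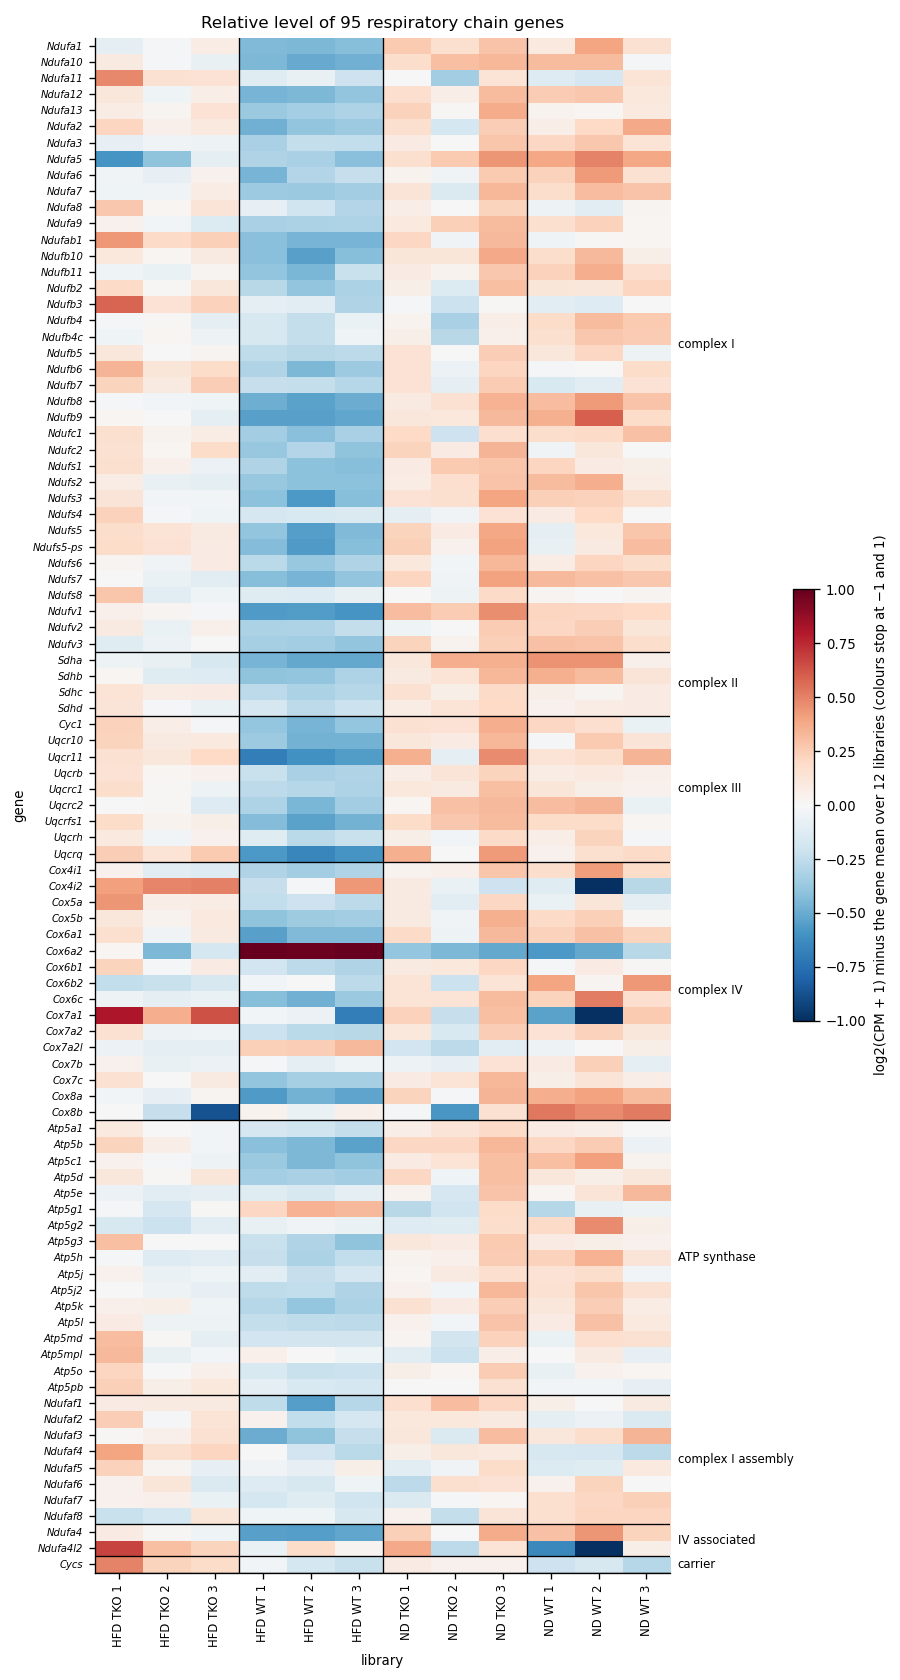
Level of the 95 genes (rows, by complex) in the 12 libraries (columns, by group) as log2(CPM + 1) minus the mean of the gene over all libraries; red is above and blue below the gene's mean, and colours stop at -1 and 1. The 3 HFD_WT columns are blue in most rows of complexes I to III, and red in the rows of Cox6a2, Cox7a2l and Atp5g1.

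Levels of different genes were compared per kilobase of RefSeq transcript, for the 91 genes with a length. By this measure Atp5b was the most abundant, at 871 CPM per kb in HFD_TKO, 593 in HFD_WT, 973 in ND_TKO and 904 in ND_WT (group means). Cox4i1 had 479.7, 401, 546 and 601 CPM per kb in the same groups. The median level of the complexes followed the order ATP synthase, complex IV, complex II, complex III and complex I in ND_WT (198, 140.3, 134, 125 and 94 CPM per kb). The assembly factors of complex I lay far below the subunits, with medians of 8.27 CPM per kb in HFD_TKO, 6.64 in HFD_WT, 8.25 in ND_TKO and 9.31 in ND_WT.

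Genes that build or serve the chain were counted in the same fit. Of 78 genes of the mitochondrial ribosome, which translates the mitochondrially encoded subunits, 38 rose and 1 fell between HFD_TKO and HFD_WT, with a median of 0.25, and 27 fell and 3 rose between HFD_WT and ND_WT (median -0.16). Mrps12 (0.71) and Mrpl20 (0.69) had the largest rises, and Mrpl19 fell (-0.51). A further list held 42 genes of assembly and related steps outside the Ndufaf genes. It covered complexes II to IV and ATP synthase, and also complex I (for example Foxred1, Nubpl and Ecsit). Of these, 20 rose and 0 fell with genotype on HFD (median 0.28). The largest rises were in Atpaf2 (0.71), which assembles ATP synthase, and Lyrm7 (0.60), which acts in complex III. Of 13 genes of coenzyme Q synthesis, 7 rose with genotype on HFD (Coq2 0.80, Coq7 0.75), and 10 fell and 2 rose with diet in WT (Coq8a -1.35, Coq9 -0.71). Of 23 genes of mitochondrial import and content, 11 rose and 1 fell with genotype on HFD, led by the chaperone Hspd1 (0.60), while the channel Vdac2 fell (-0.34). The shares of each list that rose and fell with genotype on HFD can be read against 15.2% and 31.6% of all genes. Those that rose and fell with diet in WT can be read against 37.8% and 20.3%.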

How the data were processed

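The deposited table held 1 CPM value per gene and library, per the file headers, which call the columns raw CPM. Per the submitters' processing notes the build was mm10 and the tools were featureCounts 2.0.0, STAR 2.7.3a and DESeq2; which of them made the table is not said. Use of strand and of multi-mapped reads is not given in the sources used here. Libraries were matched to groups by title and to columns by the label that names them. In every library 100% of the deposited CPM values were whole reads (offset 0.01 read, tolerance 0.05 read), so count tests could be run on recovered reads. Rows without a symbol (3 of 25232) held 0.0313% to 0.0679% of CPM and were left out.

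Changes were tested in R 4.3.3 by limma 3.58.1 (trended variance) on log2(CPM + 1), a scale on which changes of weakly expressed genes are too small. The model had 1 mean for each group over 12 libraries, leaving 8 residual degrees of freedom. Genes with at least 0.5 CPM in at least 3 libraries were tested, with Benjamini-Hochberg adjustment over 15597 genes and calls at 0.05. Alternatives were edgeR 4.0.16, DESeq2 1.42.0 and limma-voom on recovered reads, TMM scaling, pseudocounts of 0.5 and 5, a filter of 1 CPM in 6 libraries, no filter, only the groups compared, a replicate block, leaving out each library, and 2 chosen after seeing the data (leaving out the pair of libraries that stand apart, and leaving out genes with shared exons or copies). The fit was tested on simulated data. P-values measure the spread between the labelled biological replicates.

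The genes, the lists beside them and the tests were chosen with earlier results of these data known. Values in every library are given for a panel of isoforms and catalytic subunits and for the 3 largest rises and falls of each comparison. They are also given for the called gene with the largest change in each complex between genotypes on HFD, and for called genes that went against the majority. Of other lists, at most the 2 largest called changes in each direction are named. Promoter sequences and coordinates are from RefSeq on GRCm38.p6, the assembly that mm10 denotes. From them 300 bases per gene were searched for exact motifs. Transcript lengths were matched for 91 of 95 genes. Versions of the other tools were Python 3.11.15, pandas 2.3.3, numpy 2.4.6, scipy 1.17.1 and matplotlib 3.10.9.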

Additional observations from a re-analysis of the deposited data

Results flagged for a closer look

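The effect of the TKO genotype differed between diets in 49 of the 95 respiratory chain genes by the interaction test (limma, adjusted p under 0.05), which compares TKO against WT on HFD with TKO against WT on ND. Of these 48 lay above 0 and 1 below, against 9.94% and 18.8% of all genes tested. The difference was 0.74 on the log2 scale for Uqcr11, 0.70 for Ndufb9 and 0.69 for Uqcrq, each of them higher in all 3 HFD_TKO libraries than in all 3 HFD_WT libraries, with overlapping genotypes on ND. For Cox6a2 the difference was -1.32 on the log2(CPM + 1) scale, -2.72 by edgeR, -2.74 by DESeq2 and -3.48 by limma-voom. Neither edgeR nor DESeq2 called the Cox6a2 interaction (adjusted p up to 0.115). The gene passed the filter on low values through HFD_WT libraries and had at most 5 reads in any ND library. The rule for single values that stand apart needs groups of at least 4, so it was not applied to these groups of 3 libraries.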

How the results depend on the processing

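The median changes with genotype on HFD and with diet in WT kept their sign under all alternatives run. Scaling moved the medians. In TKO against WT on HFD the median of 0.35 became 0.50 with DESeq2, 0.49 with TMM, 0.50 with edgeR and 0.50 with limma-voom, in HFD against ND in WT it was -0.61, -0.60, -0.61 and -0.61 in the same order, in HFD against ND in TKO -0.18, -0.18, -0.19 and -0.18, and in the interaction 0.43, 0.42, 0.43 and 0.43. Leaving out 1 library at a time gave counts of 63 to 74 (TKO against WT on HFD), 70 to 77 (HFD against ND in WT), 0 to 2 (TKO against WT on ND), 2 to 12 (HFD against ND in TKO), 32 to 56 (interaction) and 14 to 34 (HFD_TKO against ND_WT). The medians then ran from -0.076 to 0.0537 (TKO against WT on ND), -0.156 to -0.0133 (HFD against ND in TKO) and 0.28 to 0.42 (interaction). Without the pair of libraries that stand apart, 5 genes were called in TKO against WT on ND. Shares of all genes called are not given for fits with libraries left out, only the groups compared, a replicate block or DESeq2. Those counts therefore have no background of their own. In HFD against ND in TKO 5 were called with only the groups compared, 5 with a replicate block and 15 with DESeq2, against 10. The complex IV median of TKO against WT on ND, -0.08, lay between -0.15 and 0.0078 when 1 library was left out, above 0 only without ND_TKO replicate 2, and the cause of each of these shifts was not tested. With genes that share exons or have copies left out, 44, 44, 28 and 19 of 60 were called in TKO against WT on HFD, HFD against ND in WT, the interaction and HFD_TKO against ND_WT. Of all genes, 46.7%, 58.1%, 28.7% and 35.1% were called in the same order. Of 86 calls of named genes, 60 held under every alternative and 0 changed sign.

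Same-numbered libraries of different groups did not deviate together as a rule (5 of 18 correlations over 0.1, median -0.08), so the numbers were not taken as pairs. Among libraries with different numbers, 17 of 36 correlations were over 0.1 (median 0.07). ND_TKO replicate 2, ND_WT replicate 1, HFD_TKO replicate 2 and HFD_WT replicate 3 did deviate together, with correlations of 0.40 to 0.56. Each had the most genes with a read in its group (18265, 18228, 18177 and 18456). The block by replicate number does not follow this set, and its source was not tested. With the replicate block 0 genes were called in TKO against WT on ND, 67 rose and 3 fell in TKO against WT on HFD, 3 rose and 69 fell in HFD against ND in WT, and 42 lay above and 1 below 0 in the interaction. Shares of all genes called with this block are not given. Depth limits Cox6a2, at 0 to 5 reads in ND libraries.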

Other observations

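Of 21 tested regulators of mitochondrial DNA and respiratory genes, 8 rose and 5 fell between HFD_TKO and HFD_WT, against 15.2% and 31.6% of all genes. Between HFD_WT and ND_WT, 5 rose and 7 fell, against 37.8% and 20.3% of all genes (58.1% in either direction). Ppargc1a, the coactivator PGC-1 alpha, averaged 7.09 CPM in HFD_TKO, 3.70 in HFD_WT, 7.14 in ND_TKO and 8.34 in ND_WT. It rose with genotype on HFD (0.76) and fell with diet in WT (-0.92). Nrip1, a corepressor of respiratory genes, also rose with genotype on HFD (0.84). Esrrg, the nuclear receptor ERR gamma, moved the other way, with -0.92 by genotype on HFD and 1.54 by diet in WT. Gabpb1, a subunit of GABP, fell with genotype on HFD (-0.56). The directions of the regulators were thus mixed where most genes of the 5 complexes moved one way. No relation between a regulator and the respiratory chain genes was tested.

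The uncoupling proteins, which let protons bypass ATP synthase or carry metabolites across the inner membrane, were read beside the chain. Ucp3 averaged 5.30 CPM in HFD_TKO, 25 in HFD_WT, 6.61 in ND_TKO and 34.2 in ND_WT, and was lower in TKO on both diets (-2.06 on HFD and -2.21 on ND). With diet in WT it fell (-0.44), as most genes of the chain did. Ucp2, which macrophages express, averaged 644 CPM in HFD_TKO, 884 in HFD_WT, 371 in ND_TKO and 181 in ND_WT. It was lower in TKO on HFD (-0.45) and higher in TKO on ND (1.03), and rose with diet in WT (2.29). Of 9 tested brown and beige adipocyte genes, 3 rose and 2 fell between HFD_TKO and HFD_WT, among them Dio2 (1.58) and Cidea (-2.11). Of all genes, 15.2% rose and 31.6% fell in this comparison. The brown and beige list summed to 103 to 130.0 CPM in HFD_TKO libraries and 104 to 107 CPM in HFD_WT libraries.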
